A study of Homo sapiens with 10 samples.

Results

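The transcripts of the 4 receptors of the epidermal growth factor (EGF) family and of 6 of their ligands were examined in lung cancer cells. The members were taken by gene symbol from the deposited expression table and comprised 10 of its 46427 genes. EGFR, ERBB2, ERBB3 and ERBB4 encode the receptors, and AREG, EREG, TGFA, HBEGF, BTC and EGF encode ligands. All 10 symbols were found. The members were chosen as a gene family, with earlier results of these data known.

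Poly(A) RNA was sequenced from 10 cultures of H460 and A549 cells, which are established human lung cancer cell lines. Parental H460 cells grown in 2 dimensions (2D) gave 3 libraries. H460 cells that survived 4 µM cisplatin (CR, 1 library), 5 nM paclitaxel (PR, 2 libraries) or 0.5 µM doxorubicin (DR, 1 library) gave the drug-resistant libraries, after 3 days of drug and 3 days of fresh medium. Cells grown as spheres in suspension (TS cells, which the labels call CTC) gave 1 library from each line, and A549 cells in 2D culture gave 1 library. The study's methods passaged TS cells at least 3 times, on plates coated against attachment, in RPMI with B27 and with 20 ng/mL EGF and 20 ng/mL basic fibroblast growth factor. The 2D cultures had serum in place of these supplements, so suspension and added EGF cannot be told apart here. The drug-resistant cells were survivors of a single short exposure and not long-selected lines. Nothing in the labels says that libraries of a group came from separate cultures, so a p-value measures the spread between these libraries, which may be technical.

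The reads counted on genes numbered from 59499787 to 89541774 per library, with a median of 71656787. Between replicates Pearson's r of log2(FPKM + 1) was 0.986 to 0.993 over genes, which do not count as independent replicates. The 5 epithelial markers examined (EPCAM, KRT8, KRT18, KRT19 and CDH1) summed to an FPKM of 712 or more in each library. FPKM is the number of fragments scaled to transcript length and library size, and it was used wherever levels of different genes are set side by side. A count of 3 reads, taken as the floor of detection, was 0.0335 to 0.0504 CPM (counts scaled to a fixed library total). This floor covers counting error only.

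EGF-family ligands are made as membrane-anchored precursors, and proteases of the ADAM family release most of them from the cell surface. A released ligand binds the outer part of a receptor, the receptors pair, and their kinase domains phosphorylate each other and start RAS-MAPK and PI3K-AKT signalling. ERBB2 has no known ligand of its own, and the kinase of ERBB3 is weak, so both act mainly as partners of other receptors. Signalling through EGFR is a known driver of growth in lung epithelium and a drug target in lung cancer.

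Of the ligand genes, EREG and AREG are neighbours on chromosome 4. In RefSeq on GRCh38.p14, EREG lies at chr4:74365145-74388749 and AREG at chr4:74445136-74455005, both on the forward strand. Their starts are 79.991 kb apart, with 0 protein-coding genes between them. The gene of another ligand, epigen (EPGN, chr4:74308470-74316789), starts 56.675 kb before EREG. BTC (chr4:74744759-74794523) starts 349.387 kb after AREG. These genes with neighbouring positions had very different transcript levels, as described below, and the 250 bases upstream of the first 3 starts are therefore shown. The sequences are the forward strand from 5′ to 3′ and end at the base before the annotated start. Capitals mark TATAA, the core of a TATA box, and TGACGTCA, the cAMP response element, wherever these letters occur.
EPGN, chr4:74308220-74308469: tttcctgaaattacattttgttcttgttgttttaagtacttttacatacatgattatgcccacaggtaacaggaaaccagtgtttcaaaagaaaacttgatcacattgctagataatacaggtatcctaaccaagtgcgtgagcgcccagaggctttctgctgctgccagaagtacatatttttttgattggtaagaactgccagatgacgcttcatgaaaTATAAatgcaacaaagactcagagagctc
EREG, chr4:74364895-74365144: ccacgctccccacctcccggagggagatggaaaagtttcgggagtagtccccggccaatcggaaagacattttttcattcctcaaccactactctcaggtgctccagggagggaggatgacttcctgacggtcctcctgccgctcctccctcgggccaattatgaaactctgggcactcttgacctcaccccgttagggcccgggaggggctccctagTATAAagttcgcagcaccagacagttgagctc
AREG, chr4:74444886-74445135: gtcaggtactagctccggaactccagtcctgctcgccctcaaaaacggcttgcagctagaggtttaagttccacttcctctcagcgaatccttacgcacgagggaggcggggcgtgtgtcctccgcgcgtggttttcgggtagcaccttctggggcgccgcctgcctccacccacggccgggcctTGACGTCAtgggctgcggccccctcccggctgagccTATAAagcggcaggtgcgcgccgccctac

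The 3 upstream stretches each held TATAA close to the start, at 29 bases for EPGN, 32 for EREG and 29 for AREG. Over the 35116 RefSeq promoter windows examined, each trimmed to the 250 bases upstream, 18.9% held TATAA on either strand. The AREG stretch held TGACGTCA at 65 bases upstream, which 1.65% of all windows held on either strand. It was found in the windows of no other member. The GC box GGGCGG, searched on both strands and found in 42.6% of all windows, was present upstream of AREG, TGFA, HBEGF, EGFR and ERBB4. The AP-1 motif TGANTCA, found in 6.57% of all windows, was present upstream of EGF, ERBB2 and the second of the EGFR windows. No motif searched contains another, and a match of letters is a description of the sequence only. A window was held for 9 of the 10 members, and ERBB3 had none.

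EGFR was the member with the highest level in every H460 library. Its FPKM was 7.69, 6.72 and 16.3 in the parental libraries, 14.7 in CR, 12.2 and 10.0 in PR, 13.3 in DR and 8.32 in TS cells. In A549 it was 29.7 in 2D and 12.1 in TS cells. Parental replicate 3 stood above all the other H460 libraries, and the drug-resistant levels lay within the parental range. Parental cells averaged 10.2 ± 5.26 (SD, n = 3), and drug-resistant cells averaged 12.5 ± 1.95 (SD, n = 4).

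ERBB2, the partner receptor without a ligand, ranked second among the members in the 3 parental libraries and below at least 1 ligand in the other H460 libraries. Its FPKM was 3.89, 4.87 and 6.79 in parental cells, 4.77 in CR, 2.99 and 3.81 in PR and 3.95 in DR cells. The parental and drug-resistant ranges overlapped. H460 TS cells had 0.745, which was the lowest level of ERBB2 in the series, and A549 cells had 13.1 in 2D and 19.3 as TS cells, the 2 highest.

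ERBB3, the receptor with the weak kinase, was low in H460 and reached an FPKM of at least 1 in A549 cells only. Its FPKM was 0.217, 0.432 and 0.255 in parental cells, 0.0772 in CR, 0.211 and 0.292 in PR, 0.110 in DR and 0.149 in H460 TS cells. A549 cells had 1.16 in 2D and 5.19 as TS cells. The length implied by the ratio of count to FPKM differed by up to 1.74-fold between libraries for ERBB3, against at most 1.22-fold for the other tested members, so its FPKM and count need not move in proportion. ERBB4, a receptor for neuregulins as well as for some EGF ligands, was at or near the floor throughout. It had 0 reads in parental replicates 1 and 2, CR and both A549 libraries, 7 reads in parental replicate 3, 8 and 6 in PR, 24 in DR and 5 in H460 TS cells. It did not pass edgeR's filter on low counts in any of the 5 comparisons, so 9 of the 10 members were tested in each.

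**Figure D1:**
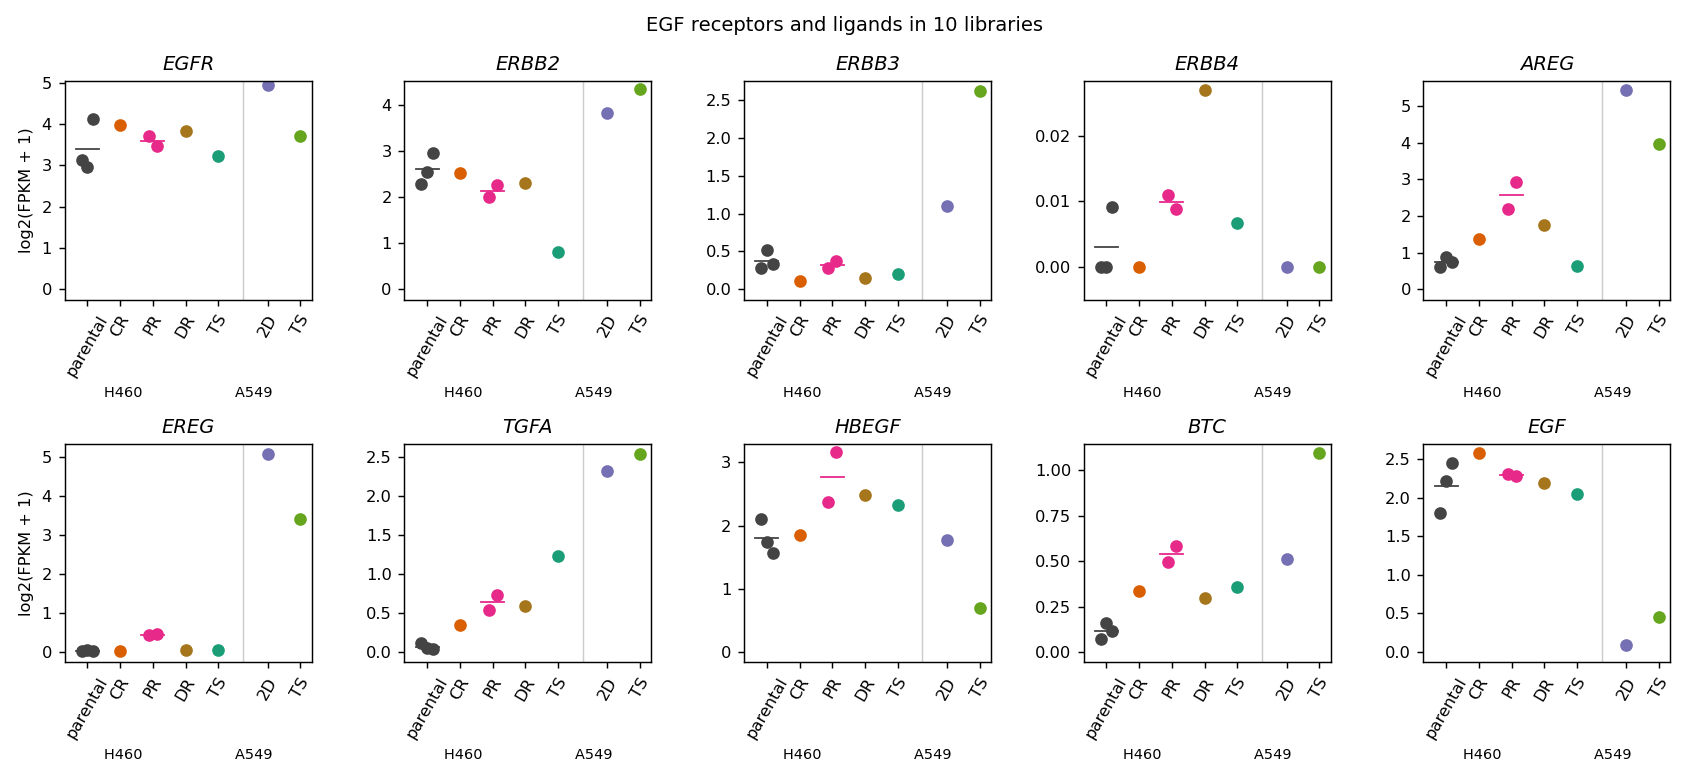
Level of each member in the 10 libraries as log2(FPKM + 1), 1 panel per gene with its own vertical scale, 1 point per library, and horizontal lines at the means of the 3 parental and 2 PR libraries. The 4 drug-resistant libraries lie above all 3 parental ones for AREG, TGFA and BTC, and the ERBB4 panel spans values close to 0 only.

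The comparison of drug-resistant with parental cells asked which genes differ in cells that survive chemotherapy. AREG, TGFA and BTC, which encode amphiregulin, transforming growth factor alpha and betacellulin, were higher in every drug-resistant H460 library than in any parental one. The share of all genes without overlap between these groups was not determined. EREG, the gene of epiregulin, was higher in the PR libraries only. Of the 5 ligands other than EREG, 3 rose and 0 fell by the test, and no receptor was called. Over all genes tested, 18.5% were higher and 15.3% lower by edgeR's quasi-likelihood test at an adjusted p under 0.05. EREG needed the drug-resistant libraries to pass the filter on low counts, so its call is a description, whereas the other 8 tested members passed it in the parental libraries alone. The median log2 fold change over all genes was 0.06. With upper-quartile scaling that median shifted to 0.23 and the calls from 54.6% to 67.4% higher, and the same 4 members were called in the same direction, with HBEGF in addition. CR, PR and DR are different drugs, and the spread of this comparison includes the differences between them.

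Amphiregulin, a ligand that binds EGFR, had an AREG FPKM of 0.509, 0.839 and 0.664 in the parental libraries. CR cells had 1.57, PR cells 3.56 and 6.67, and DR cells 2.38. Each drug-resistant library was above each parental one, with PR highest and CR lowest. Parental cells averaged 0.671 ± 0.165 (SD, n = 3), and drug-resistant cells averaged 3.54 ± 2.24 (SD, n = 4). AREG rose 4.72-fold in the edgeR fit, with a log2 fold change of 2.24 ± 0.45 (SE) and an adjusted p of 0.00451.

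TGFA was nearly silent in parental cells. Its FPKM was 0.0865, 0.0352 and 0.0247 in parental cells, from 32, 12 and 10 reads, and 0.265 in CR, 0.456 and 0.658 in PR and 0.505 in DR cells, from 102 to 212 reads. The groups did not overlap. TGFA rose 8.20-fold (log2 fold change 3.04 ± 0.50 SE, adjusted p = 0.0016, edgeR). BTC, whose product binds both EGFR and ERBB4, was also low, at 0.0496, 0.118 and 0.0819 in parental cells, 0.262 in CR, 0.410 and 0.501 in PR and 0.229 in DR cells. Its groups did not overlap either, and it rose 3.49-fold (log2 fold change 1.80 ± 0.45 SE, adjusted p = 0.0128, edgeR). Both genes stayed under an FPKM of 1 in every H460 2D and drug-resistant library. The number of genes with a read also differed, at 21036 to 21603 in parental cells, 22720 in CR, 25781 and 26133 in PR and 26745 in DR cells, and its part in the rise of these low-level ligands was not tested.

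EREG differed in level between the drugs. Its FPKM was 0.0103, 0.0319 and 0.0132 in parental cells, 0.0129 in CR and 0.0279 in DR cells, from 5 to 13 reads, and 0.359 and 0.363 in PR cells, from 140 and 113 reads. Thus CR and DR lay within the parental range, and only the PR libraries were above it. The fitted rise over all drug-resistant cells was 8.49-fold (log2 fold change 3.09 ± 1.07 SE, adjusted p = 0.0465, edgeR), but the filter on low counts was reached in 3 of the 4 drug-resistant and 1 of the 3 parental libraries, so the gene entered the fit through the group where it was high. Its adjusted p lay between 0.00372 and 0.143 over 12 alternatives, of which 5 kept the call. The call was lost without parental replicate 1 (adjusted p = 0.143), 2 (0.0975) or 3 (0.13), without PR replicate 1 (0.103) or 2 (0.107), with no filter on low counts (0.0541), and with the form of the library name as a covariate (0.0744), all by edgeR.

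HBEGF, which encodes heparin-binding EGF-like growth factor, had the second highest median of the 6 ligands over the 10 libraries. Its FPKM was 3.29, 2.35 and 1.96 in parental cells, 2.59 in CR, 4.19 and 8.02 in PR and 4.63 in DR cells. PR and DR were above the parental range and CR was within it. The edgeR log2 fold change was 0.80 ± 0.32 (SE) with an adjusted p of 0.08, which missed the threshold. It passed without CR (adjusted p = 0.03) and with upper-quartile scaling (0.0424), and the adjusted p of 13 alternatives ranged from 0.03 to 0.225. EGF itself had the highest median of the ligands. Its FPKM was 2.49, 3.64 and 4.49 in parental cells, 4.97 in CR, 3.94 and 3.86 in PR and 3.59 in DR cells, with overlapping groups and a log2 fold change of 0.10 ± 0.24 (SE, adjusted p = 0.788, edgeR).

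The receptors did not pass the test in either direction, with 1 of 3 at an unadjusted p under 0.05 in edgeR. DESeq2, which also tested ERBB4, called 0 of 4, with 1 at an unadjusted p under 0.05, and limma tested 2 and called 0. The log2 fold change was 0.16 ± 0.33 (SE, adjusted p = 0.743) for EGFR and -0.50 ± 0.26 (SE, adjusted p = 0.159) for ERBB2 in edgeR. For ERBB3 it was -1.17 ± 0.47 (SE, adjusted p = 0.0797), where CR and DR lay below the parental range and PR lay within or just below it. The sign for EGFR turned without parental replicate 1 (-0.044) or 2 (-0.11), and its SE leaves room for a change in either direction.

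The library codes in the labels come in 2 forms, and the values of log2(FPKM + 1) were also compared within each form. Parental replicates 1 and 3 and PR replicate 1 share a form, and parental replicate 2, CR, PR replicate 2 and DR share the other, so only 1 library stood on a side in each. AREG was higher in drug-resistant cells by 1.53 and 1.14 in the first and the second form, TGFA by 0.46 and 0.50, and BTC by 0.40 and 0.25. Their direction was thus shared by both forms. For EREG the differences were 0.43 and 0.12, and in the second form CR and DR were below parental replicate 2 and PR replicate 2 alone was above it. Markers of other cell types moved with the groups as well. The summed FPKM of 5 fibroblast markers was 1.29 to 6.00 in parental and 6.05 to 19.6 in drug-resistant cells, with COL1A2 and DCN under 1 in every library. That of 5 blood cell markers was 18.1 to 26.4 and 42.2 to 72.5, with PTPRC, CD3E and HBB under 1 in every library and CD68 and CD14 making up the sum. That of 4 endothelial markers stayed under 0.5 in every library. Their part in the results was not tested, and in bulk RNA a change in the share of some cells and a change in RNA per cell cannot be told apart.

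PR cells, the drug-resistant cells with 2 libraries, were also compared with the parental cells alone. This comparison shares the PR and parental libraries with the one above and is no independent support for it. AREG rose 6.39-fold (log2 fold change 2.68 ± 0.40 SE, adjusted p = 0.003), EREG 15.6-fold (3.96 ± 0.53, adjusted p = 0.0021), TGFA 8.93-fold (3.16 ± 0.56, adjusted p = 0.00487) and BTC 4.21-fold (2.07 ± 0.49, adjusted p = 0.0142) by edgeR. EREG reached the filter on low counts in both PR and 1 of the 3 parental libraries, and its parental level rests on 5, 11 and 6 reads, so its fold is poorly set and its test is a description. In this comparison 17.5% of all genes tested were higher and 10.6% lower. With upper-quartile scaling the median of all genes went from 0.05 to 0.30 and the share of higher calls from 62.2% to 75.9%.

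The call of AREG was kept without any 1 of the 5 libraries. That of EREG was kept as well, but it remains a description because EREG entered the fit through the PR libraries. TGFA was not called without PR replicate 2 (adjusted p = 0.0603, range over 11 alternatives 3.03e-06 to 0.0603). BTC was not called without PR replicate 1 (0.0784) or 2 (0.168), and its range was 0.00421 to 0.168. HBEGF had a log2 fold change of 1.02 ± 0.34 (SE, adjusted p = 0.0517) and was called in 5 of 12 alternatives, over which the adjusted p ranged from 0.0184 to 0.494. ERBB2 was -0.84 ± 0.31 (SE, adjusted p = 0.0762) and was called, as lower, only without parental replicate 1 (adjusted p = 0.036, range 0.036 to 0.334). EGFR, ERBB3 and EGF did not pass the test, at -0.14, -0.70 and -0.12 on the log2 scale, and the sign of EGFR and EGF turned with upper-quartile scaling.

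Paclitaxel acts on microtubules, and cisplatin and doxorubicin damage DNA. The PR libraries were therefore set against CR and DR as one group, at doses that were not matched. EREG had 140 and 113 reads in PR, 6 in CR and 13 in DR cells. Its fitted difference was 15.2-fold (log2 fold change 3.92 ± 0.42 SE, adjusted p = 0.0463, edgeR), and since it entered the fit through the PR libraries this p is a description. No other member was called by edgeR, where 0.224% of all genes tested were higher and 0.0204% lower. This call was lost without PR replicate 1 (adjusted p = 0.142) or 2 (0.117), and it was kept in 6 of 8 alternatives, with a range of 1.19e-06 to 0.142. For AREG the log2 fold change was 1.22 ± 0.36 (SE, adjusted p = 0.126), and DESeq2 called it (1.17, adjusted p = 0.0251, range 0.0251 to 0.301). TGFA (0.37), HBEGF (0.61), BTC (0.72) and EGF (-0.32) did not pass the test, nor did EGFR (-0.47), ERBB2 (-0.52) and ERBB3 (1.30 ± 0.42 SE, adjusted p = 0.144).

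CR and DR have 1 library each, so the difference of each from the parental mean on the log2(FPKM + 1) scale has no replicate check. On this scale the change of members with a low FPKM comes out too small. In FPKM itself, CR cells were above the parental mean 2.34-fold for AREG, 5.44-fold for TGFA and 3.15-fold for BTC. For ERBB3 they were 3.90-fold below it. PR cells were above it 19.6-fold for EREG, 11.4-fold for TGFA, 5.47-fold for BTC and 2.41-fold for HBEGF. On the log2(FPKM + 1) scale, none of the 10 members was past 2-fold in CR cells, where 6.37% of the genes with a read were. AREG alone was past it, and higher, in PR (mean of 2 libraries) and in DR cells, where the share of all genes was 5.99% and 5.02%. With parental replicate 2 alone as the control, AREG was no longer past 2-fold in DR cells, at 0.88.

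**Figure D2:**
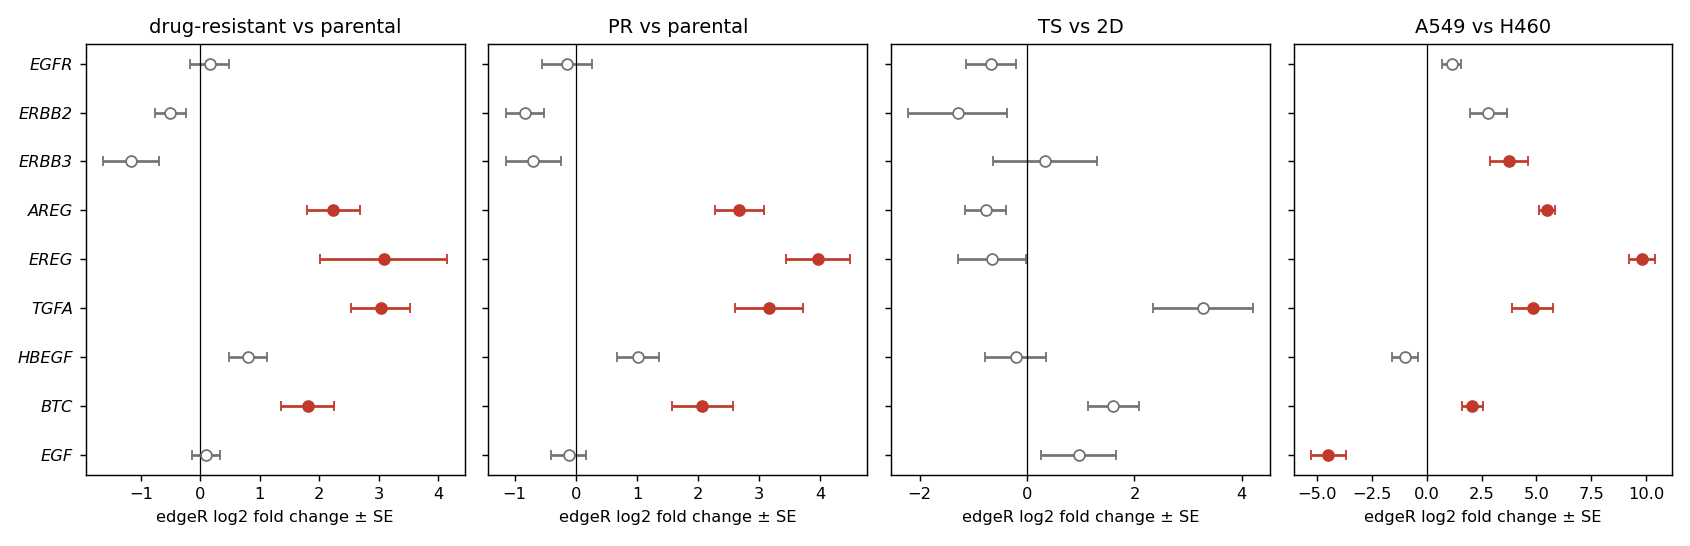
edgeR log2 fold changes ± SE of the 9 members tested, in 4 comparisons with their own horizontal scales, filled red where the adjusted p was under 0.05. AREG, EREG, TGFA and BTC are filled in the drug-resistant, PR and A549 panels, EREG in the first 2 having entered the fit through PR or drug-resistant libraries, and no member is filled in the TS panel.

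The mixture of ligand transcripts differed along with these changes. The summed FPKM of the 6 ligands was 6.44 to 7.24 in parental cells, 9.67 in CR, 12.9 and 20.1 in PR and 11.4 in DR cells. AREG and EREG together made up 8.07% to 12.4% of this sum in parental cells, 16.3% in CR, 30.4% and 35.0% in PR and 21.2% in DR cells. EGF went from between 38.7% and 62.1% of the sum in parental cells to between 19.2% and 51.4% in drug-resistant cells, although its own level did not pass the test. In A549 cells AREG and EREG made up 91.6% of the sum in 2D and 77.7% in TS cells, and EGF 0.0723% and 1.19%. These shares describe transcripts, and a transcript with a high share need not give the most released ligand. The genes EPGN and NRG1 to NRG4, which also encode EGF-family ligands, lie outside this sum. They summed to an FPKM of 26.3 to 47.4 in the H460 libraries and of 25.8 (2D) and 12.0 (TS) in A549 cells. Among the receptors the ratio of EGFR to ERBB2 was 1.38 to 2.40 in parental cells, 2.63 to 4.07 in drug-resistant cells, 11.2 in H460 TS cells, and in A549 cells it was 2.27 in 2D and 0.627 in TS culture.

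**Figure D3:**
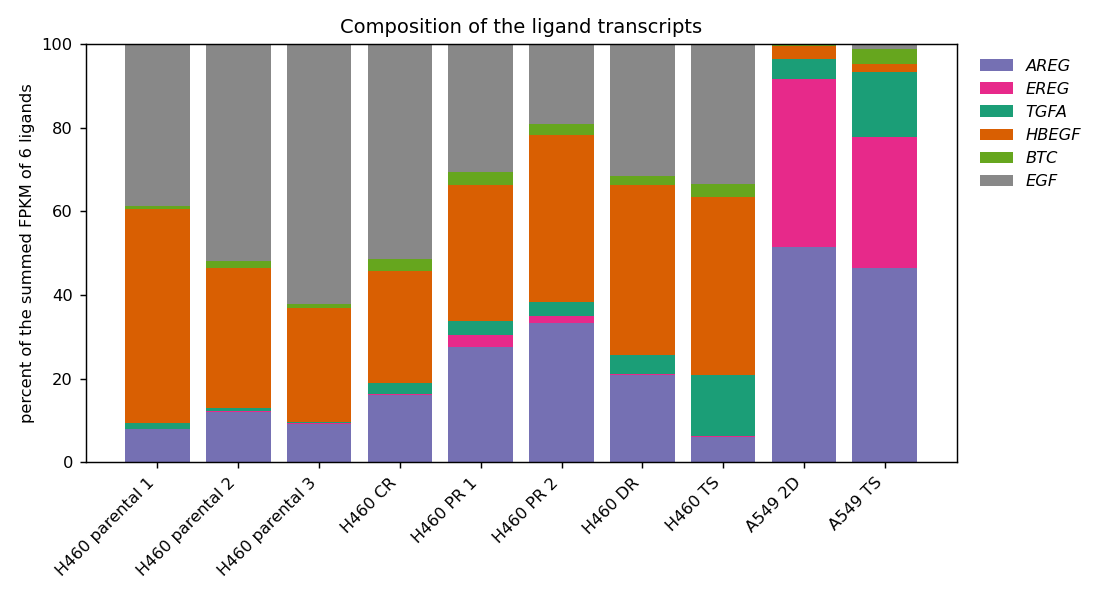
Stacked bars of the percent of the summed FPKM of 6 ligands that each ligand contributes, 1 bar per library. HBEGF and EGF fill most of the parental H460 bars, and AREG and EREG fill 91.6% of the A549 2D bar and 77.7% of the A549 TS bar.

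A549 cells carried more of 4 of the 6 member ligands than H460 cells. Of the 5 other EGF-family ligands, NRG1 was called higher and EPGN lower by edgeR. Beside these calls stood 14.4% higher and 9.42% lower of all genes tested. EPGN had 0 reads in the 2D and 6 in the TS library of A549 and entered the fit through the H460 libraries. Its call is therefore a description. The 2 A549 libraries were compared with the 3 parental and the 1 TS library of H460 with the culture as a covariate. This fit gives 1 fold per gene for both cultures, although the line difference was not equal in both. In 2D culture the FPKM ratio of A549 to the H460 mean was 82.5 for TGFA and 3.83 for ERBB3. In TS cells TGFA had 4.85 in A549 against 1.35 in H460, and ERBB3 5.19 against 0.149. AREG was 45.2-fold higher (log2 fold change 5.50 ± 0.37 SE, adjusted p = 0.000284), with an FPKM of 42.5 (2D) and 14.5 (TS) in A549 against 0.509 to 0.839 in the 4 H460 libraries. EREG was 897-fold higher (9.81 ± 0.60, adjusted p = 0.000203), at 33.1 and 9.74 against at most 0.0356. The H460 libraries of EREG rest on 5 to 12 reads, so the size of this fold is poorly set. TGFA was 28.5-fold higher (4.83 ± 0.95, adjusted p = 0.0127), at 4.03 and 4.85 against 0.0247 to 1.35, where the highest H460 value was that of TS cells. BTC was 4.23-fold higher (2.08 ± 0.48, adjusted p = 0.0218), at 0.423 and 1.14 against 0.0496 to 0.282. EGF went the other way and was 22.4-fold lower in A549 cells (-4.48 ± 0.79, adjusted p = 0.00861), at 0.0597 and 0.373 against 2.49 to 4.49. All these tests were by edgeR. The A549 and H460 ranges of these 5 ligands did not overlap, and the share of all genes without overlap was not determined.

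Of the receptors, ERBB3 was 13.4-fold higher in A549 cells (log2 fold change 3.74 ± 0.87 SE, adjusted p = 0.023, edgeR). ERBB2 was at 2.80 ± 0.84 (SE, adjusted p = 0.0509) and EGFR at 1.13 ± 0.44 (SE, adjusted p = 0.109) on the same scale, and HBEGF at -0.97 ± 0.59 (SE, adjusted p = 0.279). In all, 5 of the 9 tested members were higher and 1 was lower, where 14.4% of all genes tested were higher and 9.42% lower. Single libraries decided some of these calls. ERBB3 was lost without parental replicate 1 (adjusted p = 0.052) or 3 (0.0532), TGFA without parental replicate 2 (0.0521) or A549 2D (0.142), and BTC without parental replicate 2 (0.0507), A549 2D (0.194) or A549 TS (0.0663). ERBB2 was called, as higher, without A549 2D (adjusted p = 0.00182), by DESeq2 (0.000546) and by limma (0.0128), and HBEGF was called, as lower, without A549 2D (-2.66, adjusted p = 0.0208). The adjusted p of ERBB3 lay between 8.72e-06 and 0.0532 over its alternatives, that of TGFA between 1.66e-06 and 0.142, of BTC between 0.00118 and 0.194, of ERBB2 between 0.000546 and 0.11 and of HBEGF between 0.0208 and 0.933. In 2D culture alone, with 1 A549 library and no test, 6 of the 10 members were past 2-fold, against 9.57% of all genes. They were EGFR (1.55), ERBB2 (1.22), AREG (4.71), EREG (5.07) and TGFA (2.26), which were higher, and EGF (-2.07), which was lower, on the log2(FPKM + 1) scale.

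The chromosome 4 neighbours thus had opposite levels in the lines. EPGN, the gene of epigen, had an FPKM of 33.4, 23.7 and 15.4 in parental H460 cells, 14.6 in CR, 28.6 and 27.5 in PR, 29.0 in DR and 23.1 in TS cells, which is above every member in these libraries except parental replicate 3 and CR, where EGFR was higher. In A549 cells it had 0 reads in 2D and 6 reads in TS culture. EREG and AREG, which start 56.675 and 136.666 kb further on, were high in A549 cells and low in H460 cells. In drug-resistant H460 cells EPGN did not pass the test (log2 fold change -0.07, adjusted p = 0.867, edgeR), while AREG and BTC rose. EGF, which starts 35118 kb after BTC on the same chromosome, was like EPGN higher in H460 than in A549 cells. Within the H460 libraries the 2 did not move together. EGF was lowest (2.49) in parental replicate 1, where EPGN was highest (33.4), and highest (4.97) in CR, where EPGN was lowest (14.6).

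**Figure D4:**
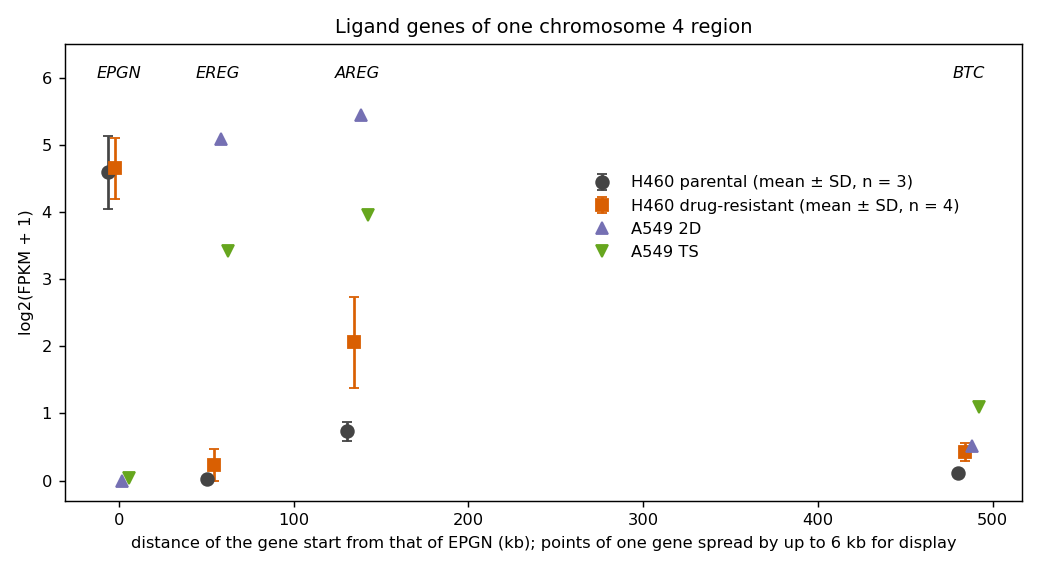
Levels of 4 ligand genes as log2(FPKM + 1) by the distance of their starts from that of EPGN in kb, for parental and drug-resistant H460 cells (mean ± SD, n = 3 and 4) and for single A549 libraries. EPGN is high in H460 and at or near 0 in A549, where EREG and AREG are high.

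The culture of both lines as spheres asked which genes differ in cells that survive in suspension. With the line as a covariate, 0 of 9 members passed the edgeR test, in a comparison where 0.147% of all genes tested were higher and 0.0435% lower. At an unadjusted p under 0.05 there were 2 members, TGFA and BTC. DESeq2 called 1, TGFA, and limma called 0. TGFA had a log2 fold change of 3.27 ± 0.93 (SE, adjusted p = 0.338) and BTC of 1.61 ± 0.48 (SE, adjusted p = 0.375). Each line has 1 TS library, so the test rests on the lines moving alike, and several members differed in opposite directions in H460 and A549 cells.

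In H460 TS cells, TGFA and ERBB2 were past 2-fold on the log2(FPKM + 1) scale, against 1.94% of all genes with a read. TGFA stood at an FPKM of 1.35 from 400 reads, against 0.0247 to 0.0865 in parental cells, a ratio of 27.6 to the parental mean. ERBB2 stood at 0.745 from 239 reads, against 3.89 to 6.79, which was 6.96-fold lower than the parental mean. On the log2(FPKM + 1) scale the differences were 1.16 and -1.80. BTC was 3.38-fold and HBEGF 1.57-fold above the parental mean in FPKM, and both values lay above the parental range. EGFR (8.32), AREG (0.561) and EGF (3.13) lay within it. EREG had 12 reads, against 5 to 11 in parental cells. The fibroblast markers summed to 28.3 in this library, mostly from LUM, and the blood cell markers to 30.1, and their part in these values was not tested.

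In A549 TS cells 5 of the 10 members were past 2-fold on the log2(FPKM + 1) scale, against 5.02% of all genes with a read. Of these, EGFR went from 29.7 to 12.1 in FPKM, which is 2.46-fold lower, AREG from 42.5 to 14.5, 2.93-fold lower, and EREG from 33.1 to 9.74, 3.40-fold lower. HBEGF went from 2.42 to 0.618, which is 3.92-fold lower. ERBB3 went from 1.16 to 5.19, which is 4.49-fold higher. The main receptor and 3 of its ligands were thus lower in A549 spheres, and a partner receptor was higher. ERBB2 was 1.47-fold, TGFA 1.20-fold, BTC 2.69-fold and EGF 6.25-fold higher, the last from 29 to 193 reads. BTC and EGF were past 2-fold in FPKM but not on the log2(FPKM + 1) scale. The sum of the blood cell markers was 21.9 in 2D and 80.0 in TS cells of A549.

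**Figure D5:**
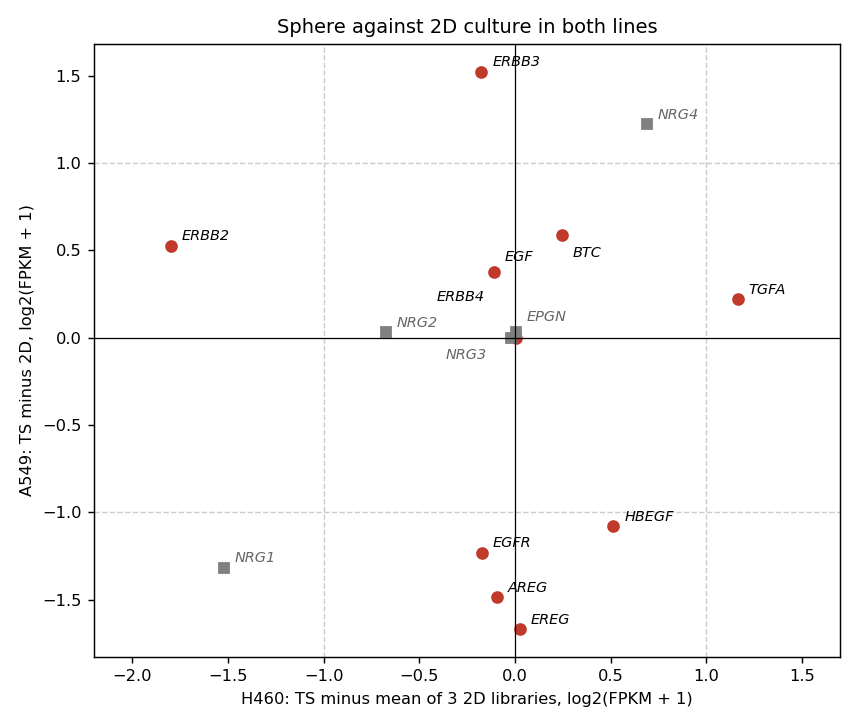
Difference of TS from 2D culture on the log2(FPKM + 1) scale in H460 (horizontal) and A549 cells (vertical), 1 point per gene, red circles for the members and grey squares for other EGF-family ligands, with dashed lines at 2-fold. ERBB2 lies at -1.80 and 0.53, and ERBB3, EGFR, AREG, EREG and HBEGF lie past 2-fold in A549 cells but not in H460 cells.

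When the pooled TS comparison was repeated without single libraries, the members followed the line that kept its TS and 2D libraries. TGFA was called without A549 2D (log2 fold change 4.68, adjusted p = 0.00578) or A549 TS (4.68, adjusted p = 0.00499), and ERBB2 was then called as lower (-2.85, adjusted p = 0.0335 and 0.0308). The single H460 TS library was assumed to vary like the parental ones in these fits. Between 0.00499 and 1 was the span of the adjusted p of TGFA over its alternatives, and between 0.0308 and 1 that of ERBB2.

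The other ligands of the family were examined next. NRG1, the gene of neuregulin, which binds ERBB3 and ERBB4, had an FPKM of 6.32, 8.65 and 7.27 in parental cells and 14.0 in CR, 15.0 and 16.7 in PR and 15.6 in DR cells. The groups did not overlap, though the share of all genes without overlap was not determined. NRG1 rose 2.81-fold in drug-resistant cells (log2 fold change 1.49 ± 0.17 SE, adjusted p = 0.000287, edgeR). In H460 TS cells it was 1.92, and in A549 cells it was 24.5 in 2D and 9.23 in TS culture. The pooled TS difference was -1.96 ± 0.29 (SE, adjusted p = 0.0738). NRG4, a ligand of ERBB4, fell by 1.61 on the log2 scale in drug-resistant cells (adjusted p = 0.0152, edgeR). NRG2 (-0.32, adjusted p = 0.215) did not pass the test, and NRG3 had at most 33 reads in any library. Of these 5 ligands with EPGN, 1 rose and 1 fell in drug-resistant cells and also in PR cells, beside 18.5% higher and 15.3% lower of all genes in the first and 17.5% and 10.6% in the second comparison. With the form of the library name as a covariate, 1 was higher and 0 lower in drug-resistant cells, so the call of NRG4 was lost. Between PR and CR with DR 0 were called by edgeR, DESeq2 and limma (1 at an unadjusted p under 0.05 in edgeR).

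Of 10 genes of ligand processing and shedding, 2 rose and 1 fell in drug-resistant cells, beside 18.5% higher and 15.3% lower of all genes. With upper-quartile scaling 3 were higher and 0 lower, and with the form of the library name as a covariate 1 was higher and 0 lower. FRMD8, which stabilizes the ADAM17 protease complex, had a log2 fold change of 2.19 ± 0.22 (SE, adjusted p = 0.000214), and RHBDF1, a rhomboid protein that escorts ADAM17, of 1.07 ± 0.28 (SE, adjusted p = 0.0153). ADAM10, the sheddase of EGF and BTC, fell by 0.61 (adjusted p = 0.0293), and RHBDF2 was at 0.72 (adjusted p = 0.0652). ADAM17 itself, the main sheddase of AREG and TGFA, was at -0.06 ± 0.19 (SE, adjusted p = 0.839). The median of the list was 0.14, beside 0.06 for all genes.

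Among 25 adaptors and relay proteins downstream of the receptors, 2 were called higher and 6 lower in drug-resistant cells. Of all genes, 18.5% were higher and 15.3% lower. This balance depended on the scaling, with 6 higher and 3 lower under upper-quartile scaling and 4 and 4 by limma. STAT3, a transcription factor, rose by 1.04 (adjusted p = 0.00274) on the log2 scale, and GAB1, a docking protein, was the other gene that rose. AKT1 fell by 0.70 (adjusted p = 0.00839) and NRAS by 0.80 (adjusted p = 0.0105). The list median was -0.11. Of 14 attenuators, 3 rose and 0 fell, beside the same shares of 18.5% and 15.3% of all genes. ERRFI1, a direct inhibitor of the EGFR kinase, rose by 1.40 ± 0.27 (SE, adjusted p = 0.00338), CBLB, a ubiquitin ligase that marks receptors for breakdown, by 0.91 (adjusted p = 0.0144), and LRIG2 by 0.59 (adjusted p = 0.0298). HGS, which sorts receptors for breakdown, was at 0.46 (adjusted p = 0.0829). The list median was -0.01.

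Of 16 genes of MAPK output and feedback, 2 rose and 1 fell in drug-resistant cells. This count depended on the method, with 4 higher and 1 lower under upper-quartile scaling and by DESeq2, and 5 and 1 by limma. IER3, an early response gene, rose by 2.76 ± 0.37 (SE, adjusted p = 0.000613), SPRY2, a feedback inhibitor, by 0.71 (adjusted p = 0.0438), MYC fell by 0.95 (adjusted p = 0.00972) and SPRY4 was at 0.60 (adjusted p = 0.0592). The list median was 0.24. In PR cells alone, 1 shedding gene rose and 0 fell, 1 relay gene rose and 3 fell, 3 attenuators rose and 0 fell, and 2 MAPK output genes rose and 1 fell. With upper-quartile scaling the higher and lower counts in PR cells were 3 and 0, 3 and 1, 5 and 0, and 5 and 0 for the 4 lists, so the balance of the relay genes turned. These counts can be read against 18.5% and 15.3% of all genes in drug-resistant cells and 17.5% and 10.6% in PR cells.

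Between PR cells and CR with DR cells, edgeR called 0 genes of these 4 lists. At an unadjusted p under 0.05 there were 2 shedding, 2 relay, 1 attenuator and 7 MAPK output genes. DESeq2 called 1, 1, 0 and 4 of them, and limma 0, 0, 0 and 2. In TS cells edgeR also called 0 genes of the 4 lists, with 0, 2, 0 and 1 at an unadjusted p under 0.05, while DESeq2 called 0, 2, 0 and 1 and limma 0, 0, 0 and 1. The gene with the smallest p was SPRY1, a feedback inhibitor of receptor signalling, at 3.28 ± 0.49 (SE, adjusted p = 0.078). PIK3R1 was at 0.88 (adjusted p = 0.267), FURIN at 1.10 (adjusted p = 0.721) and LRIG1 at 0.75 (adjusted p = 0.687). Further genes ranked high in these lists had adjusted p values from 0.717 to 1. They were ADAM12 (-0.82), ADAM19 (1.34) and ADAM15 (0.26), the kinases SRC (0.39) and AKT1 (-0.38), SOCS5 (-0.59), SOCS4 (-0.48) and CBLB (0.57), and SPRY4 (0.64), IER3 (0.54) and ETV4 (0.43). Between A549 and H460 cells the 4 lists had 2, 6, 3 and 2 higher and 1, 2, 0 and 3 lower genes, of 10, 25, 14 and 16 tested, beside 14.4% higher and 9.42% lower of all genes.

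The genes whose pattern over the 10 libraries was most like that of EGFR, among 13438 genes, were TNS3 (Pearson's r = 0.912 of log2(FPKM + 1)), KDM4A (0.906) and PACS1 (0.899). For EGF they were RASSF8 (0.988), SLC9A3-AS1 (0.987) and FRY (0.985). The points share their cell line and library, so that a gene that differs between H460 and A549 cells scores high with EGF, and the values are a description only.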

How the data were processed

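RNA sequencing values of 10 cultures were re-analysed. Libraries were prepared from poly(A) RNA with Illumina TruSeq kits. The submitters' processing notes name bcl2fastq 1.8.4, Trimmomatic, HISAT2 2.1.0, StringTie 2.1.3b and GRCh38, without their roles. How reads were counted, shared between genes or assigned to strands is not given in the sources used here. The authors deposited whole-number read counts per gene without normalization. For FPKM, the authors scaled fragments by the length of the transcript and the size of the library. The TPM values deposited by the authors were close to a constant multiple of the FPKM in each library and were not used for results.

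Counts were compared with edgeR 4.0.16 (filterByExpr, TMM, glmQLFit and glmQLFTest) in R 4.3.3, with Benjamini-Hochberg adjustment over all genes tested and a threshold of 0.05. The standard error is the absolute log2 fold change divided by the square root of F. Single libraries were compared as differences of log2(FPKM + 1), past 2-fold, without a test. Alternatives were DESeq2 size factors, upper-quartile scaling, no filter on low counts, DESeq2 1.42.0, limma 3.58.1 with trend on log2(FPKM + 1) restricted to genes that reached an FPKM of 1 in 2 or more libraries, the form of the library name as a covariate, a replicate block, a pseudocount of 0.1, single parental libraries as control, and each library left out in turn. All members are named, with all other EGF-family ligands, and from each pathway list up to 4 genes with the smallest p in the drug-resistant and TS comparisons. ADAM17 and GAB1 fall outside this rule and were chosen after their values were seen. Results of some genes under this rule are not reported here. The members and lists were chosen with earlier results of these data known. Positions, promoter windows and sequences are from RefSeq on GRCh38.p14. The scripts were tested on simulated data. Tables were handled in Python 3.11.15 with pandas 2.3.3, and figures were drawn with matplotlib 3.10.9.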

Additional observations from a re-analysis of the deposited data

Results flagged for a closer look

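Between sphere and 2D culture, 4 members lay outside the 2D libraries in opposite directions in the 2 lines. In A549 cells, with 1 library of 2D culture, any difference met this rule. EGF also differed in sign, at -0.11 in H460 and 0.37 in A549 cells, but its H460 level lay within the parental range. The share of all genes that met the rule was not determined. Each line has 1 TS library, so the difference between the lines was not tested, and the values are on the log2(FPKM + 1) scale. ERBB2 was -1.80 in H460 and 0.53 in A549 cells, and ERBB3 was -0.18 and 1.52. HBEGF was 0.51 in H460 and -1.08 in A549 cells. EREG was 0.024 in H460 and -1.67 in A549 cells, and the H460 value rests on 12 reads in the TS library and 5 to 11 in the parental ones, so its direction there is within counting error. Among the 4 drug-resistant libraries, no member had a library that stood apart from the other 3 by Dixon's criterion.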

How the results depend on the processing

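Of the single-gene values under the alternatives, 596 kept their direction and side of the threshold or moved within the spread, 103 moved by more, 18 passed the threshold, 19 lost it and 24 tested values turned sign. A further 22 of the untested single-library differences turned sign, which are counted here by size only. The cause of these changes was not tested, apart from the low-value filter of limma, which left 5 of the 9 members to test against parental cells.

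With limma the members called in drug-resistant cells went from 4 to 1, in PR cells from 4 to 2 (all genes from 5455 to 3026) and between PR and CR with DR from 1 to 0. Between PR and CR with DR, the 48 genes called became 146 with DESeq2 size factors, 318 with upper-quartile scaling, 1227 with no filter, 1672 with DESeq2 (2 members) and 143 with limma, and the share of higher calls went from 91.7% to 76.0% with no filter and 52.0% with DESeq2. In TS cells DESeq2 gave 1 member and 521 genes, against 0 and 35. Leaving out single libraries gave 3 to 5 members and 4215 to 6585 genes in drug-resistant cells, 2 to 6 and 950 to 6661 in PR cells, 0 to 1 and 0 to 934 between PR and CR with DR, 0 to 2 and 6 to 322 in TS cells, and 4 to 6 and 2359 to 3905 between the lines.

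With a pseudocount of 0.1, the members past 2-fold were 3 in CR, 5 in PR and 2 in DR, and all genes past it were 3891, 5601 and 3785 for these and 1776, 3430 and 5674 for H460 TS, A549 TS and A549 against H460. Against parental replicate 2 alone they were 1, 2 and 0 members, and against replicate 3 alone 2 in PR (875 genes in H460 TS). Upper-quartile scaling gave 2 members in PR and 2 in DR (2514 genes), and replicate 1 alone gave 2512 genes in CR.

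Values that turned sign had not passed the test. Without single libraries, EGFR ranged from -0.11 to 0.69 and EGF from -0.13 to 0.31 in drug-resistant cells. In PR cells EGFR ranged from -0.40 to 0.43 and EGF from -0.30 to 0.14. There EGFR was 0.078 with upper-quartile scaling and 0.20 with limma, and EGF 0.10 and 0.14. In TS cells ERBB2 ranged from -2.85 to 0.62, ERBB3 from -1.36 to 2.26, EREG from -1.72 to 0.90, HBEGF from -1.92 to 0.67 and EGF from -0.16 to 2.66.

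PR and parental replicates 1 and 2 share only a number, and their deviations correlated at 0.156 over 12496 genes. With the replicate block on these 4 libraries EGFR was 0.42 and EGF 0.15, and 4 members and 6775 genes were called, with 2 relay genes higher and 6 lower and 6 MAPK output genes higher and 1 lower. Unblocked, the same libraries gave 0.43, 0.14 and 6661 genes.

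ERBB4, NRG3 and EREG outside PR rest on few reads in H460 cells, so their levels there are imprecise at this depth.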
